A study of Mus musculus with 6 samples.

Results

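The 3 wild-type libraries of interscapular brown fat, labelled WT replicates 1, 2 and 3, are described here on their own. They were chosen by the genotype tag of the samples and make up 3 of the 6 samples of the series, whose other samples are not used. The mice had a C57BL/6 background and the genotype wild-type. They ate standard chow at 22 °C under 12 h of light and 12 h of darkness. Like the transgenic animals of the series, they had been given tamoxifen by oral gavage (75 mg/kg in sunflower oil) on 5 days, although a separate treatment tag reads untreated. The sources used here do not give their age, their sex, the time from tamoxifen to dissection or whether they carried a floxed allele. The labels call the samples biological replicates and do not say whether each library came from 1 mouse. With 1 group and 3 libraries no test was made: levels are given per library, as mean ± SD (n = 3), or as the ratio of the highest to the lowest library.

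Brown adipose tissue burns fatty acids and glucose to make heat. Its adipocytes hold many mitochondria and small lipid droplets, and noradrenaline from sympathetic nerves acts on their β3-adrenergic receptor to release fatty acids from the droplets. These fatty acids open uncoupling protein 1 (UCP1), which lets protons back across the inner mitochondrial membrane so that respiration yields heat in place of ATP. The interscapular depot lies against the skeletal muscle of the back, and it also holds blood vessels, connective tissue, nerves and immune cells.

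Polyadenylated RNA was sequenced, and the libraries held 44269031, 50219212 and 50842488 counts over 18507 genes. Levels of different genes are compared in FPKM (fragments per kilobase of transcript, scaled to depth), which divides by gene length. The same gene in different libraries is compared in CPM (counts per 1000000 counts of the library), scaled by TMM to allow for differences in composition. An FPKM of at least 1 was reached in all 3 libraries by 10893 genes, at least 10 by 4905, at least 100 by 668 and at least 1000 by 66. Across genes, which do not count as replicates, log2 CPM correlated with a Pearson's r of 0.96 between replicates 1 and 2, 0.98 between 1 and 3 and 0.97 between 2 and 3. Becn1, the gene deleted in the other samples of the series, was at 37.4, 37.3 and 35.8 FPKM. Transcripts of the Y-linked Ddx3y were found in every library (60.8, 66.2 and 62.7 CPM), whereas Xist stayed at or below 0.24 CPM.

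The RNA of control brown fat was led by a handful of fat and energy genes. Fabp4, the cytosolic fatty acid carrier of adipocytes (Entrez Gene 11770, chromosome 3, 10204342 to 10208616, GRCm38.p6), ranked 1 with 19230, 15930 and 14110 FPKM. Scd1, the desaturase that makes oleic from stearic acid (Entrez Gene 20249, chromosome 19, 44394450 to 44407709), ranked 2 with 7418, 6018 and 8044 FPKM. Ucp1 (Entrez Gene 22227, chromosome 8, 83290348 to 83298456) ranked 3 with 5310, 4307 and 5770 FPKM, so that the heat-making transporter stood above every listed nuclear gene of the respiratory chain in each library. Next came Atp5b, the catalytic β subunit of ATP synthase, at 4274 ± 240 FPKM (SD, n = 3). Aldoa, the glycolytic aldolase, and Gpd1, which turns a glycolytic intermediate into glycerol 3-phosphate for triglycerides and for the shuttle of electrons into mitochondria, followed at 3830 ± 1136 and 3795 ± 838 FPKM. Dbi, which binds acyl-CoA, ranked 7 with 3714 FPKM, and Fth1, the ferritin heavy chain that stores iron, ranked 9 with 3158 FPKM.

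Of the 30 genes with the highest mean FPKM, 23 were among the top 30 of every library. The rest of this top group held subunits of cytochrome c oxidase (Cox6a1, Cox4i1, Cox6b1, Cox8b, Cox5b, Cox8a, Cox6c), of complex I (Ndufa4, Ndufb8, as listed here) and of ATP synthase (Atp5a1). It also held the lipogenic genes Thrsp, Tkt and Fasn, and Pck1, which makes glycerol 3-phosphate from pyruvate carbon in fat. Cfd, which encodes the secreted protease adipsin, was at 1609, 3388 and 3251 FPKM, low in replicate 1 and alike in the other two. Ndufa4, long assigned to complex I, has since been described as a subunit of complex IV. Cidea, a lipid droplet protein typical of brown adipocytes, stood just outside at rank 31 with 2199, 1792 and 1963 FPKM. The top gene alone took 3.19% of the summed FPKM, the top 10 took 10.5% ± 0.599, the top 100 took 35.4% ± 1.22, and 238 genes made up 50% of it.

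**Figure D1:**
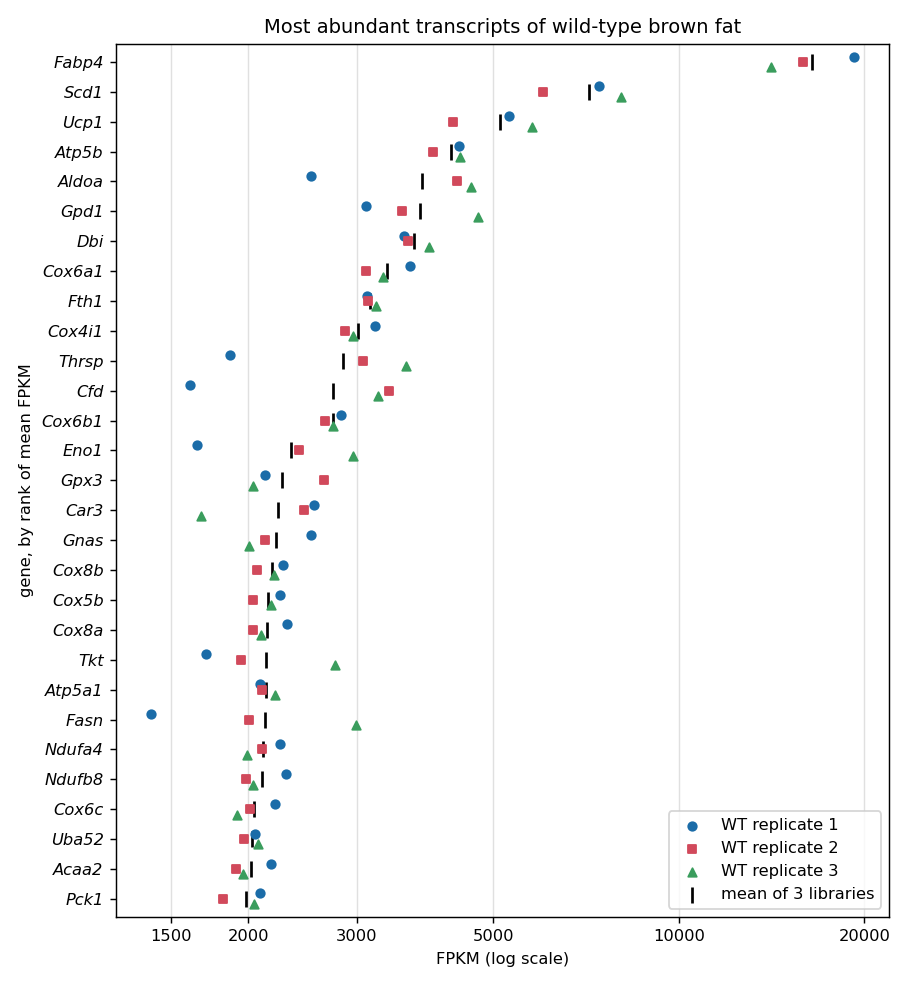
FPKM (log axis) of 29 of the 30 genes with the highest mean FPKM, ordered by rank, with a point per WT library and a tick at the mean. Fabp4 stands apart at the top, and the points spread most for Fasn (1393, 2006 and 2990 FPKM), Thrsp (1866, 3075 and 3612 FPKM) and Cfd (1609, 3388 and 3251 FPKM), in each of which replicate 1 is lowest.

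Grouped by function, 87 of the 100 most abundant genes fell into a listed group, 36 of them in oxidative phosphorylation. That group of 82 nuclear genes held 14.9% ± 0.366 of the summed FPKM, more than any other list. By read counts, which are not divided by gene length, lipogenesis held 8.48% and oxidative phosphorylation 7.04%. By FPKM, adipocyte genes followed with 6.13% ± 0.356, of which Fabp4 took 3.19%, and 83 cytosolic ribosomal protein genes held 5.77% ± 0.254. Lipogenesis held 3.77% ± 0.906 of the summed FPKM and the citric acid cycle 3.37% ± 0.245. Fatty acid β-oxidation (3.01% ± 0.196), glycolysis (2.66% ± 0.643) and the thermogenic list (2.46% ± 0.252) came next. A total of 17709 genes in no list made up 49.8%. The 13 unlisted genes of the top 100 included Dbi, the secreted glutathione peroxidase Gpx3 (2272 FPKM), the G protein subunit Gnas that couples β-adrenergic receptors to adenylyl cyclase (2222 FPKM) and the lipid peroxide-reducing Gpx4 (1613 FPKM). Cytosolic superoxide dismutase Sod1 (1064 FPKM), the acute-phase protein haptoglobin (Hp, 1081 FPKM) and the lipid carrier Apoe (960 FPKM) were among them as well.

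**Figure D2:**
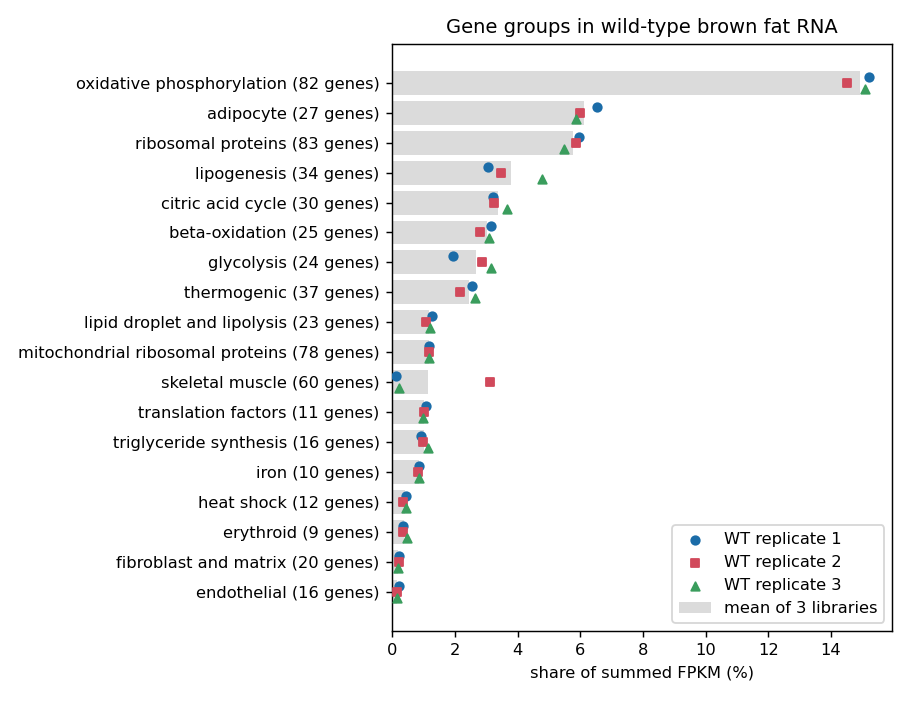
Share of summed FPKM (%) taken by each gene list, each gene counted in only 1 list, for lists of at least 0.15%. Grey bars give the mean and points the 3 WT libraries. Oxidative phosphorylation leads at 14.9%, and the skeletal muscle point of replicate 2 (3.12%) lies far from those of replicates 1 (0.125%) and 3 (0.219%).

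Within the respiratory chain, the share of summed FPKM was 4.47% ± 0.135 for 37 genes of complex I, 3.95% ± 0.182 for 14 genes of complex IV and 3.64% ± 0.0707 for 17 genes of complex V. The complex IV subunits Cox8b (2281, 2071 and 2200 FPKM) and Cox7a1 (1361, 1306 and 1302 FPKM) were listed as thermogenic. They are in neither the complex IV share nor that of oxidative phosphorylation, and Ndufa4 was counted in complex I. The order of complexes I and IV therefore rests on these listings. Complex III, with 10 genes, held 2.16% ± 0.0209 and complex II, with 4 genes, 0.710% ± 0.0497. Complex II is the only one of these with no subunit from the mitochondrial genome. Its flavoprotein Sdha was at 1106, 1066 and 1238 FPKM and its iron-sulfur subunit Sdhb at 1134, 1162 and 1255 FPKM, close together in all libraries. The leading complex IV transcript was Cox6a1 at 3661, 3105 and 3310 FPKM, the leading complex III transcript Uqcr10 at 1596 ± 125 FPKM, and the leading ATP synthase transcript Atp5b. Genes of the mitochondrial genome are not analysed here.

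Several respiratory subunits exist as isoforms, and the libraries used them in nearly fixed proportions. Cox7a1, the isoform of heart, muscle and brown fat, made up 57.8%, 59.3% and 59.5% of the summed Cox7a FPKM, against 32.1% on average for the general isoform Cox7a2. Cox8b, which also marks brown fat, and the general Cox8a were equally abundant, Cox8b holding 49.7%, 50.4% and 51.2%. In other pairs the general isoform was nearly alone: Cox4i1 held 99.8% ± 0.0317 over Cox4i2. Of the muscle isoform Cox6a2 the share was 0.108%, 3.20% and 0.218% of Cox6a FPKM, high in replicate 2. The ATP synthase subunit c genes encode the same mature protein, and Atp5g2 held 52.8% ± 4.31 and Atp5g3 44.0% ± 2.06 of their FPKM. Atp5g1 was at 9.90, 43.3 and 11.2 FPKM, also highest in replicate 2.

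Promoters of respiratory genes are known for sites of nuclear respiratory factor 1 (NRF1), which binds a GC-rich element. The letters GCGCANGCG, searched on both strands, stood in the window from 250 bases before to 50 after the gene start of 22 of the 68 oxidative phosphorylation genes with a RefSeq promoter (32.4%). The same window held them in 16 of 69 mitochondrial ribosomal protein genes (23.2%), 9 of 62 cytosolic ribosomal protein genes (14.5%), 0 of 43 skeletal muscle genes, 14.6% of 10964 expressed genes and 7.03% of all 27025 genes with a promoter. Cox6a1 is shown because it is the most abundant of the oxidative phosphorylation genes with a match. Its window (GRCm38.p6, chr5:115348909-115349208, minus strand, printed 5′ to 3′ along the gene) has 3 matches, in capitals, of which a pair on opposite strands overlap in the first block.
Cox6a1: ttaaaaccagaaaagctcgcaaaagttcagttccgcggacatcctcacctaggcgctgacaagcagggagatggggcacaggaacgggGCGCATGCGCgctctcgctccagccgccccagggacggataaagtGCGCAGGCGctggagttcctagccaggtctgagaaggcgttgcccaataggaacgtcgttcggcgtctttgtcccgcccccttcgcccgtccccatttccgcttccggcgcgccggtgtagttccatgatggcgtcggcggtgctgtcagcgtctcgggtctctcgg
A match describes the letters only, and no binding was measured.

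The heat-making genes were led by Ucp1, and shares within gene families varied little. Ucp1 took 97.2% ± 0.319 of the FPKM of the Ucp family, against 1.84% for Ucp3 and 1.02% for Ucp2. Cpt1b, the muscle and brown fat form of the carnitine transferase that admits fatty acids to mitochondria, likewise took 98.6% ± 0.0607 of Cpt1 FPKM. Adrb3, the β3 receptor, was at 103, 73.8 and 103 FPKM and made up 83.0% ± 3.89 of the β-adrenergic receptor FPKM. Other genes of the brown adipocyte were lower: the potassium channel Kcnk3 at 178 ± 17.8 FPKM, the proton channel Otop1 at 89.7 ± 13.1 FPKM and the secreted factor Nrg4 at 50.5 ± 13.0 FPKM. Transcription factors stood at the lower end of the scale, with Esrra at 104 ± 3.89 FPKM, Ppara at 44.8 ± 9.14 FPKM, Ebf2 at 10.8 ± 2.13 FPKM, Prdm16 at 8.86, 7.08 and 6.85 FPKM and Zic1 at 1.74, 1.74 and 1.61 FPKM. Fgf21, a hormone of stressed or cold-exposed tissue, was near 0 (0.374, 0 and 0.163 FPKM).

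In this list, 6 of 36 genes (16.7%) had at least a 2-fold range in CPM among the libraries, beside 10.5% of all 13872 genes kept. Dio2, the deiodinase that activates thyroid hormone, was at 313, 161 and 224 CPM, and the coactivator Ppargc1a at 139, 65.1 and 72.5 CPM, both highest in replicate 1. Acot11, an acyl-CoA thioesterase, went the other way with 245, 532 and 947 CPM, as did the transcription factor Irf4 with 18.1, 53.5 and 65.4 CPM. Glycerol kinase, Gk, was highest in replicate 1 and lowest in replicate 2 (298, 90.5 and 179 CPM). Tbx15, a transcription factor of brown fat and of muscle, was high in replicate 2 (4.61, 27.7 and 5.13 CPM). Ucp1 itself was at 8451, 7183 and 10220 CPM, a 1.42-fold range. It was lowest in replicate 2, as were 20 of the 36 genes kept, beside 31.4% of all genes kept.

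Fatty acid supply was led by genes of uptake, release and oxidation. Besides Fabp4, Fabp3 of heart, muscle and brown fat reached 1440, 817 and 1008 FPKM. Lpl, the lipase that frees fatty acids from circulating lipoproteins, was at 1133, 1034 and 930 FPKM, and the fatty acid transporter Cd36 at 724, 470 and 521 FPKM. The first lipase of the droplet, Pnpla2, was at 1266 ± 183 FPKM and exceeded the hormone-sensitive lipase Lipe (484 ± 32.2 FPKM) and the monoglyceride lipase Mgll (218 ± 47.0 FPKM). Among the perilipins that coat the droplet, Plin2 took 40.5% ± 3.69, Plin1 34.2% ± 2.18 and Plin5 11.7% ± 1.20 of their FPKM. The 15 genes of the β-oxidation cycle held 2.62% ± 0.153 of the summed FPKM, and none of them had a 2-fold range. Acaa2, the last thiolase of the cycle, led them at 2177, 1914 and 1965 FPKM, ahead of the trifunctional protein subunit Hadhb (1740 ± 191 FPKM) and the long-chain dehydrogenases Acadvl and Acadl (1367 ± 60.3 and 1313 ± 87.4 FPKM).

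The same tissue carried the transcripts that build fat. Thrsp, a small protein that promotes lipogenesis, averaged 2851 ± 894 FPKM, the pentose phosphate enzyme Tkt 2142 ± 559 FPKM and fatty acid synthase Fasn 2130 ± 805 FPKM. Acly, which makes cytosolic acetyl-CoA from citrate, was at 277, 833 and 1444 FPKM. Scd1 held 98.9% ± 0.688 of the FPKM of its family, and Elovl6 61.3% ± 4.53 of the elongase FPKM. For triglyceride synthesis the leading acyltransferases were Agpat2 at 1126, 1602 and 1935 FPKM and Dgat2 at 754, 934 and 983 FPKM, with Dgat2 holding 80.3% ± 3.43 of Dgat FPKM over Dgat1. Glucose enters adipocytes through the insulin-dependent carrier Slc2a4, which held 87.4% ± 1.82 of the FPKM of the glucose carriers listed, and it is trapped by hexokinase, of which Hk2 held 88.3% ± 5.51. Pdk4, the kinase that shuts pyruvate out of the citric acid cycle, held 71.1% ± 5.70 of its family at 778, 412 and 483 FPKM.

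Markers of adipocytes were abundant and those of most other cell types low. Adipoq, the adipocyte hormone, was at 1102, 900 and 849 FPKM, whereas the white fat hormone Lep reached 1.09, 1.89 and 1.36 FPKM and the white fat homeobox genes Hoxc9 and Hoxc10 were at 0 in each library. Of the 10 genes in the white adipocyte list, 5 reached an FPKM of 1 in all libraries. They included the methyltransferase gene Nnmt at 38.3 ± 8.16 FPKM and the ion channel gene P2rx5 at 52.7 ± 7.72 FPKM. P2rx5 is described elsewhere as a marker of brown and beige adipocytes, so its place in this list is not secure. Of the endothelial genes, Cdh5 was at 111, 86.6 and 81.8 FPKM and Pecam1 at 73.9, 63.4 and 55.8 FPKM. In CPM 13 of 16 of them were highest in replicate 1, as were 9 of 11 pericyte and smooth muscle genes, beside 37.4% of all genes kept. Macrophage genes were led by the lysozyme gene Lyz2 at 88.8, 93.0 and 60.5 FPKM. Others were lower, C1qa at 24.1, 23.5 and 23.8 FPKM and Csf1r at 7.72, 6.48 and 5.79 FPKM, and lymphocyte genes nearly absent, Cd3e at 0.133, 0.535 and 0.208 FPKM. Collagen genes of fibroblasts were moderate, led by Col3a1 at 194, 219 and 135 FPKM. Globin transcripts of blood reached 664, 729 and 964 FPKM for Hbb-bs. Near-identical globin copies share reads, so their split (Hba-a2 at 747 ± 126 FPKM, Hba-a1 at 18.1 ± 6.77 FPKM) is uncertain. Of the Schwann cell genes that mark nerve, S100b, which adipocytes also make, was at 47.5 ± 10.4 FPKM. Epithelial Epcam stayed at or below 0.0188 FPKM. A lower level in such bulk RNA can mean fewer cells of a type or less RNA per cell, which cannot be told apart here.

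Among the libraries, most genes differed little and a few groups differed much. Over the 13872 genes kept by a low-count filter the median range was 1.25-fold. The common biological coefficient of variation was 27.9%, and it was 20.4% without replicate 2. At least a 2-fold range was found for 1458 genes (10.5%), of which 796 were highest in replicate 2, 360 in replicate 1 and 302 in replicate 3. A 4-fold range was found for 368 genes, 294 of them highest in replicate 2. Pairs of libraries gave 933 genes at 2-fold between replicates 1 and 2, 741 between 2 and 3, and 721 between 1 and 3. Abundant genes varied less: the 999 most abundant genes kept had a median range of 1.17-fold, and 59 of them reached 2-fold.

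**Figure D3:**
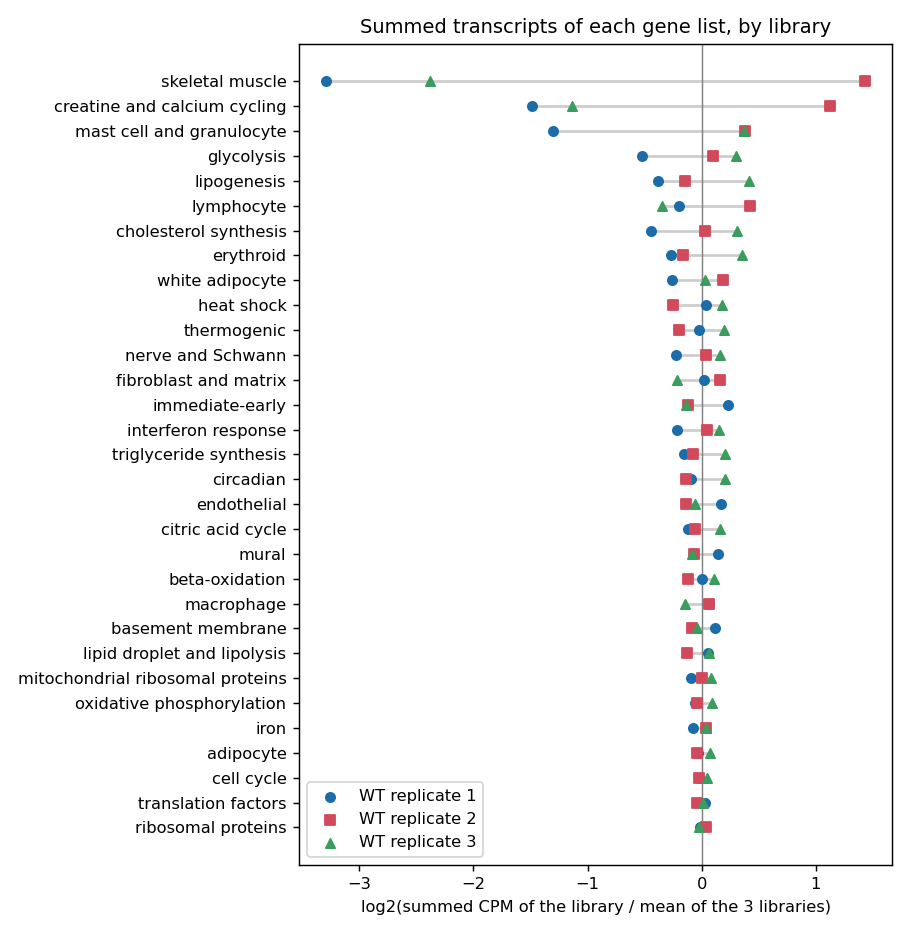
Summed TMM-scaled CPM of each gene list in each WT library, as log2 of its ratio to the mean of the 3 libraries, ordered by range. Skeletal muscle spans the widest range, with replicate 2 highest, and glycolysis, lipogenesis and cholesterol synthesis have replicate 3 highest and replicate 1 lowest. Ribosomal proteins and oxidative phosphorylation lie within 1.04-fold and 1.11-fold.

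Skeletal muscle transcripts differed most. The 61 listed genes summed to 1011, 26770 and 1905 CPM, 26.5-fold higher in replicate 2 than in replicate 1 and 1.88-fold higher in replicate 3 than in replicate 1. They took 0.126%, 3.14% and 0.221% of the summed FPKM. All 56 of them that passed the filter were highest in replicate 2 (beside 32.4% of all genes kept), and 54 were lowest in replicate 1 (beside 35.6%) and 2 in replicate 3 (beside 33.0%). The ratio of the highest to the lowest library was 28.2 for the thin filament, 27.1 for the thick filament, 25.5 for Z disc, titin and M band genes, 31.0 for genes of calcium and excitation, and 22.7 for energy genes. It was 9.02 for the regulators. Without replicate 2 the ratio between the remaining libraries was 1.88.

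Acta1, the skeletal muscle actin (Entrez Gene 11459, chromosome 8, 123891758 to 123894775), was at 128, 4393 and 264 CPM. The fast myosin Myh4 was at 118, 3042 and 209 CPM and the muscle creatine kinase Ckm at 72.5, 1875 and 130 CPM, so that replicate 2 stood an order of magnitude above both other libraries. In FPKM Acta1 reached 2922 in replicate 2 and 89.5 and 165 FPKM in replicates 1 and 3. The oxygen store Mb (9.86, 374 and 19.9 CPM) and the calcium buffer Pvalb of fast fibres (17.2, 630 and 38.5 CPM) followed the same order. Myogenic regulators were near the detection limit, Myod1 at 0.0643, 2.36 and 0.0834 CPM, and the satellite cell gene Pax7 was at 0 in replicates 1 and 3 and at 0.496 CPM in replicate 2.

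Muscle transcripts differed between the libraries in kind as well as in amount. Genes of slow fibres (Myh7, Tnnc1, Tnni1, Tnnt1, Myl2 and Myl3) made up 1.60%, 10.6% and 4.99% of the CPM of 6 slow and 6 fast fibre genes. The slow sum was 4.93, 1048 and 33.1 CPM, and the fast sum 303, 8833 and 631 CPM. Slow Myh7 (Entrez Gene 140781, chromosome 14, 54970684 to 54994626) was at 0.664, 520 and 12.6 CPM and made up 0.405%, 9.77% and 3.67% of the FPKM of the 4 adult myosins. The fast Myh4 led those myosins in every library, with 73.1%, 57.4% and 61.0%. The slow set rests on 230 counts in replicate 1, 52795 in replicate 2 and 1589 in replicate 3. Among all genes above 20 CPM, the widest ranges of those highest in replicate 2 were Myh7, Tnni1 (0.193, 89.9 and 2.38 CPM), Tnnt1, Myl2 and Tnnc1, all of slow fibres.

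**Figure D4:**
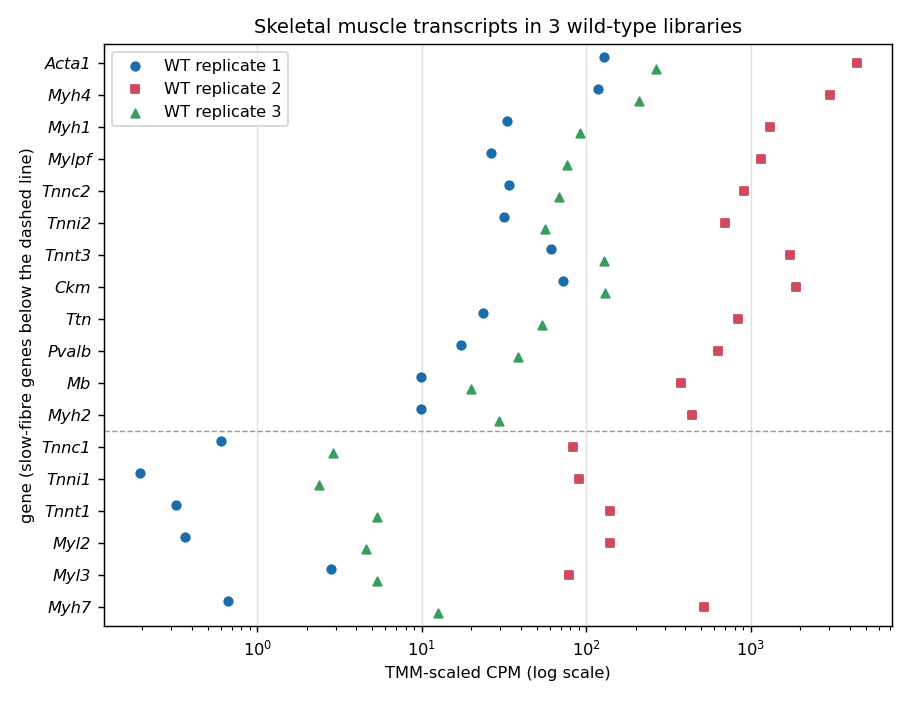
TMM-scaled CPM (log axis) of muscle genes in each WT library, slow-fibre genes below the dashed line. Replicate 2 lies highest and replicate 1 lowest for each gene shown, and the gap between them is wider for slow-fibre genes such as Myh7 (0.664 and 520 CPM in replicates 1 and 2) than for Acta1 (128 and 4393 CPM).

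Genes outside the muscle list moved with it in these libraries. The calcium pump Atp2a1 of fast fibres, listed under calcium cycling, was at 106, 2478 and 179 CPM, and the mitochondrial creatine kinase Ckmt2 at 3.92, 159 and 9.63 CPM. Creatine and calcium cycling are proposed further sources of heat, and the list for them, which holds these muscle genes, spanned 6.12-fold. Ckb, the creatine kinase of brown adipocytes, was at 58.8, 85.4 and 86.5 CPM. Within the muscle list, the muscle enolase Eno3 made up 1.67%, 14.3% and 1.08% of enolase FPKM. Pfkm, the muscle phosphofructokinase, was at 126, 389 and 157 CPM, the lipid droplet protein Fitm1 at 0.814, 23.6 and 1.83 CPM, the noncoding RNA H19 at 5.25, 526 and 28.2 CPM and the transferrin receptor Tfrc at 40.5, 322 and 52.1 CPM. How far muscle RNA sets the values of these genes was not tested.

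Of the muscle genes with a RefSeq promoter, 11 of 43 (25.6%) held the letters TATAAA on either strand, beside 9.01% of expressed genes and 15.7% of all genes. Acta1 is shown as the most abundant of the muscle genes, with the match in capitals just before the gene start (GRCm38.p6, chr8:123894726-123895025, minus strand).
Acta1: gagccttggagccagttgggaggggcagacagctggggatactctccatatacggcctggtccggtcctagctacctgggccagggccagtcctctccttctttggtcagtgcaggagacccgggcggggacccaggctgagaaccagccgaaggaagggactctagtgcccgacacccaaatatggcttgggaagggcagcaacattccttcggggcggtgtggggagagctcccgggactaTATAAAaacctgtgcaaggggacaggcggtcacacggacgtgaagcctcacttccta

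The lipogenic genes formed the second pattern, with replicate 3 highest and replicate 1 lowest. Summed over 34 genes they reached 65570, 77450 and 114100 CPM, a 1.74-fold range, and 14 of 34 (41.2%) had a 2-fold range, beside 10.5% of all genes kept. Of the 34 genes 23 were highest in replicate 3 (beside 30.1%) and 24 lowest in replicate 1 (beside 35.6%). Set against the summed adipocyte list, the sum was 1.69, 2.00 and 2.73. The sum of that list spanned 1.08-fold, and Plin1 was at 1008, 899 and 993 CPM. Members of the adipocyte list moved in different directions, with a median range of 1.43-fold, beside 1.25-fold for all genes kept. Fabp4 was at 11930, 10360 and 9747 CPM, and Gpd1 at 8374, 10030 and 14190 CPM.

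The order was clear at the entry of the pathway and in fatty acid synthesis. Acly (Entrez Gene 104112, chromosome 11, 100476352 to 100528000) was at 1180, 3723 and 6858 CPM, a 5.81-fold range. Acss2, which makes acetyl-CoA from acetate, was at 243, 510 and 974 CPM. For NADPH, malic enzyme Me1 was at 441, 1024 and 1646 CPM and the pentose phosphate enzyme Pgd at 409, 772 and 1215 CPM. The 10 genes of carbon and NADPH supply summed to 9752, 15130 and 23800 CPM, and 9 of them were lowest in replicate 1 (beside 35.6% of all genes kept). Acaca, the carboxylase that commits acetyl-CoA to fatty acids, was at 1718, 3412 and 4940 CPM. Fasn (Entrez Gene 14104, chromosome 11, 120805958 to 120825166) was at 13410, 20220 and 32020 CPM and Thrsp at 1991, 3437 and 4290 CPM.

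The end of the pathway was less ordered. Elovl6, the elongase of palmitate, was at 575, 798 and 1322 CPM, with the order of Fasn. Scd1 was lowest in replicate 2 (34730, 29530 and 41930 CPM), and without it the ratio of the lipogenic sum was 2.34. Scd2 was low in replicate 1 and equal in the others (75.4, 503 and 505 CPM). Among regulators, the sterol-responsive factor Srebf1 was at 230, 431 and 423 CPM, the carbohydrate-responsive factor Mlxipl at 505, 617 and 744 CPM, and Insig1, which holds back sterol-responsive factors, at 150, 291 and 364 CPM. Nr1h2, which encodes a nuclear receptor for oxysterols, differed little, at 103, 91.6 and 96.7 CPM. Without replicate 3 the ratio of the lipogenic sum was 1.18, and without replicate 1 it was 1.47.

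**Figure D5:**
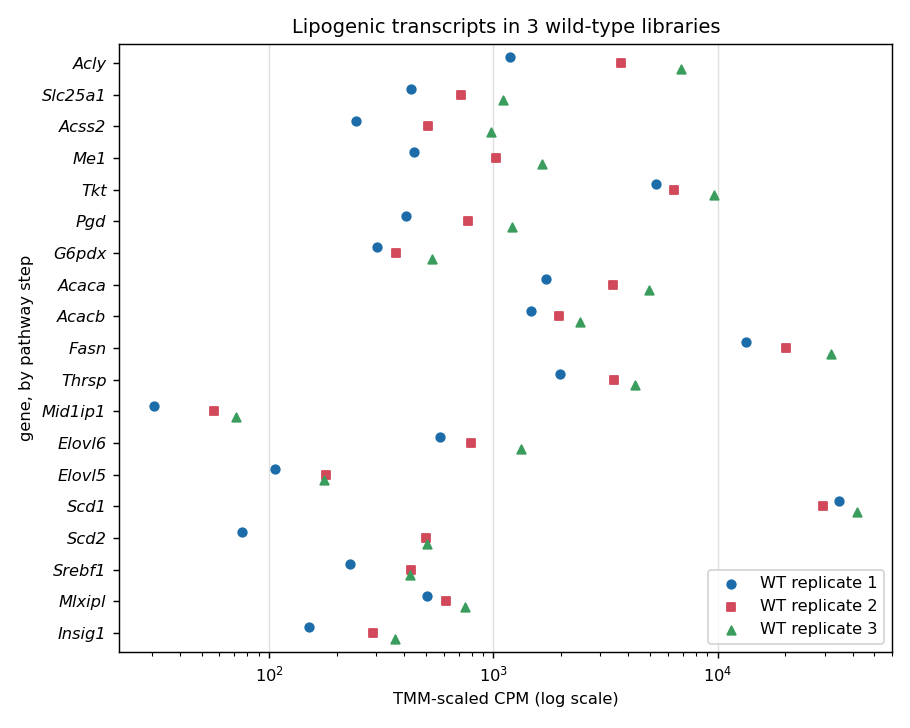
TMM-scaled CPM (log axis) of lipogenic genes in each WT library, ordered by pathway step from carbon and NADPH supply through fatty acid synthesis, elongation and desaturation to regulators. Replicate 3 lies highest for Acly (6858 CPM) and Fasn (32020 CPM) and replicate 1 lowest (1180 and 13410 CPM), whereas Scd1 is lowest in replicate 2 (29530 CPM).

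Neighbouring pathways had the same order of libraries. The 16 glycolytic enzymes summed to 16830, 26310 and 30490 CPM, and 15 of them were lowest in replicate 1 (beside 35.6% of all genes kept). Of the 16, 12 were highest in replicate 3 (beside 30.1%) and 3 in replicate 2 (beside 32.4%), the library with the most muscle transcripts. How far muscle RNA sets the values of these enzymes was not tested. Aldoa was at 3767, 6778 and 7622 CPM, Pkm at 2061, 3125 and 3823 CPM and Hk2 at 418, 592 and 885 CPM. The fructose carrier Slc2a5 had a wider range, at 9.06, 42.0 and 83.7 CPM. In cholesterol synthesis 18 of 19 genes were lowest in replicate 1 (beside 35.6%) and 17 highest in replicate 3 (beside 30.1%), although at low levels: the list summed to 837, 1168 and 1419 CPM. Fdps was at 40.3, 80.1 and 128 CPM and Sc5d at 28.7, 80.7 and 112 CPM, whereas the exception Fdft1 was lowest in replicate 3 (104, 151 and 73.2 CPM). Pyruvate dehydrogenase subunit Pdhb (1050, 1524 and 1934 CPM), the activating enzyme Acsl5 (398, 700 and 1008 CPM) and the acyltransferase Agpat2 (1715, 2558 and 3283 CPM) followed the order of Fasn. So did Ppp1r3b, which directs phosphatase to glycogen, at 107, 340 and 549 CPM.

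CCAAT boxes, bound by the factor NF-Y, are known beside sterol-responsive sites in promoters of these pathways. The letters CCAAT, on either strand, stood in the window of 13 of 13 cholesterol synthesis genes with a RefSeq promoter and of 17 of 29 lipogenic genes (58.6%), beside 42.7% of expressed genes and 41.1% of all genes. A motif of 5 letters is frequent by its length. The letters TCACNCCAC of a sterol regulatory element, on either strand, stood in 1 of 13 cholesterol synthesis genes and 1 of 29 lipogenic genes, beside 1.40% of expressed genes and 1.44% of all genes. Fasn and Thrsp are shown as abundant lipogenic genes whose levels differed by 2.39-fold and 2.15-fold among the libraries. Matches are in capitals, 3 in Fasn (GRCm38.p6, chr11:120824498-120824797, minus strand), of which a pair on opposite strands overlap, and 2 in Thrsp (chr7:97417501-97417800, minus strand), of which the ATTGG is on the opposite strand. The Fasn window is the one of the RefSeq promoter table, and it surrounds a start that lies inside the outer limits of the gene given above.
Fasn: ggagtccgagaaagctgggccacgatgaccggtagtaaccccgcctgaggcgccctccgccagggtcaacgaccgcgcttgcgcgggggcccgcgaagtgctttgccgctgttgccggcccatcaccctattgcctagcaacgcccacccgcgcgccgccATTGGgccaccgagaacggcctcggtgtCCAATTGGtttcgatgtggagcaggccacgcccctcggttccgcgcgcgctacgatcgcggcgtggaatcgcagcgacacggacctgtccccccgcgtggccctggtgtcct
Thrsp: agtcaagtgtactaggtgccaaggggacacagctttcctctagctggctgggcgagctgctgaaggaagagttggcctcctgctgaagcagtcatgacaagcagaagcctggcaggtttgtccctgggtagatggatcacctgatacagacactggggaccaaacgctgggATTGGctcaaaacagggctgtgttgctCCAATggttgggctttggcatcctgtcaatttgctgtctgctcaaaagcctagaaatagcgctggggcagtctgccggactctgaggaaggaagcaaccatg

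Other genes were highest in replicate 1, the library lowest in lipogenic and glycolytic sums. Rbp4, the carrier of retinol in blood, was at 487, 111 and 164 CPM, and Txnip, which restrains glucose uptake, at 1289, 417 and 989 CPM. Angptl4, an inhibitor of lipoprotein lipase that rises in fasting, was at 352, 181 and 190 CPM, and Pdk4 at 2600, 1443 and 1797 CPM. Cntfr, a cytokine receptor subunit, was at 76.8, 18.8 and 14.4 CPM, and the clock gene Clock at 58.5, 20.7 and 14.1 CPM. The sources used here give neither feeding state nor hour of dissection.

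Summed over genes, the bulk of the energy machinery was steady across these differences. Summed CPM spanned 1.11-fold for oxidative phosphorylation, 1.17-fold for β-oxidation, 1.22-fold for the citric acid cycle and 1.04-fold for cytosolic ribosomal proteins. Single genes of the citric acid cycle list had a median range of 1.32-fold, wider than the 1.25-fold of all genes kept. Of the 82 oxidative phosphorylation genes, 3 had a 2-fold range, beside 10.5% of all genes kept: Cox6a2 and Atp5g1, highest in replicate 2, and Cox6b2 (6.49, 3.16 and 3.73 CPM). Small as they were, the differences mostly had one direction in TMM-scaled CPM. In oxidative phosphorylation 60 of 82 genes were highest in replicate 3, 29 of 37 in complex I among them, beside 30.1% of all genes kept. So were 24 of 30 citric acid cycle genes, 18 of 25 β-oxidation genes and 56 of 78 mitochondrial ribosomal protein genes. Of 82 cytosolic ribosomal protein genes kept, 9 were. For some lists the direction depended on the scaling. As shares of unscaled counts, oxidative phosphorylation (7.14%, 6.89% and 7.09%) and β-oxidation (3.33%, 2.9% and 3.19%) were highest in replicate 1. Mitochondrial ribosomal proteins (0.625%, 0.634% and 0.630%) were highest in replicate 2. The citric acid cycle (3.846%, 3.825% and 4.195%) stayed highest in replicate 3.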

How the data were processed

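Per the labels' protocols, RNA was isolated with Trizol and polyadenylated RNA was made into libraries with a TruSeq Stranded mRNA kit. Tools named in the submitters' processing notes, with no role given, are DESeq2, StringTie 1.3.4d, HISAT2 2.1.0, Trimmomatic and bcl2fastq 2.20.0, with the build mm10. The sources used here do not say which gene annotation was used, how multiply mapped reads were treated or whether counting used the strand. The authors deposited whole-number read counts per gene, without normalization, and FPKM values per gene, per the file headers. Another 12 columns of per-sample values were not used.

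Shares and ranks were taken from FPKM with Python 3.11.15 and pandas 2.3.3. Counts were scaled by TMM in edgeR 4.0.16 (R 4.3.3), with factors of 1.06, 1.00 and 0.944, after filterByExpr kept 13872 genes and removed 4635. The range of a gene is the difference of log2 CPM (prior count 2) between its highest and lowest library, and the ratio of a list is that of summed CPM. The biological coefficient of variation came from an intercept-only model. The steps were tested on simulated data. Counts of 44269031 to 50842488 per library limit the precision of low genes. The table holds 1218 genes at 0 in all 3 libraries.

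The members and the 33 gene lists were chosen with earlier results of these data known. The text names the 30 genes highest in mean FPKM, the 3 highest of each list, the 10 widest ranges per highest library at a mean of at least 20 CPM, and preset marker genes. Others, the isoform families, the slow and fast fibre sets and the promoter motifs were chosen after their values were seen. Promoter sequences and gene positions came from RefSeq, assembly GRCm38.p6, the assembly behind mm10. Positions matched for 18467 of the 18507 genes by Entrez Gene number. Alternatives were other scalings, filters and units, and leaving out each library. A few gene-level values are not reported here.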

Additional observations from a re-analysis of the deposited data

How the results depend on the processing

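No paired analysis was possible because the libraries form 1 group and no test was made. With 2 libraries a range is narrower by construction, since fewer samples enter it. Leaving out each library gave a coefficient of variation of 20.4% to 30.8%, 720 to 950 genes with a 2-fold range, a muscle ratio of 1.88 to 26.5 and a lipogenic ratio of 1.18 to 1.74. Without replicate 2 the mean muscle share was 0.173% of FPKM, against 1.16% over all 3 libraries. Without a low-count filter the coefficient was 33.8% with 3978 genes at 2-fold, and with at least 5 CPM in each library it was 19.2% with 365 genes. On log2(FPKM + 1) 514 genes reached 2-fold, a scale that compresses low genes. The lipogenic ratio was 1.56 without scaling, 1.54 in summed FPKM and 2.34 without Scd1. At an FPKM of at least 10, 4905 genes were detected. Read counts, not divided by gene length, moved shares: the top 100 genes held 31.1%, lipogenesis 8.48%, oxidative phosphorylation 7.04%, adipocyte genes 3.97%, ribosomal proteins 2.15% and the thermogenic list 1.92%, and 18 of the 30 most abundant genes remained by CPM. Over the other 27 lists, 19 of 108 values moved by more than 1 SD between libraries, all of them by read counts. The 81 values from leaving out a library could not move by this rule. Dropping 1 of 3 libraries shifts a mean by less than 1 SD, whatever the values are. The share of creatine and calcium cycling, whose SD exceeds its mean, was 0.0362% of FPKM without replicate 2, against 0.0882% over all 3 libraries. RLE and upper-quartile scaling moved none of the coefficient, the 2-fold count and the 2 ratios.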

Other observations

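Genes of the day cycle and of stress also differed. Within the circadian list 6 of 18 genes had a 2-fold range, beside 10.5% of all genes kept. Clock was highest in replicate 1 (58.5, 20.7 and 14.1 CPM), whereas Dbp, an output gene of the clock (20.7, 29.96 and 61.1 CPM), and the repressor Bhlhe40 (34.0, 79.2 and 131 CPM) were highest in replicate 3. Per2 stood low in replicate 2 (55.8, 22.1 and 55.7 CPM). The core activator Arntl was at 12.3, 13.6 and 9.11 CPM. Of 12 heat shock genes 11 were highest in replicate 3 (beside 30.1% of all genes kept) and 9 lowest in replicate 2 (beside 31.4%), none at 2-fold. Hspa8, a constitutive chaperone, was at 1529, 1067 and 1680 CPM. As shares of unscaled counts the list held 0.484%, 0.378% and 0.479%, lowest in replicate 2 but not highest in replicate 3. Immediate-early genes, which respond within minutes to handling and stimulation, were highest in replicate 1 in 11 of 21 cases, beside 37.4% of all genes kept, with Fos at 43.7, 35.5 and 25.1 CPM and the orphan receptor Nr4a3 at 24.3, 7.72 and 10.2 CPM. Genes of mast cells and granulocytes were all lowest in replicate 1 (8 of 8 kept, beside 35.6% of all genes kept), at summed levels of 9.39, 30.3 and 29.9 CPM. Most of that sum was Kit (5.3, 21.1 and 19.1 CPM), and 3 of the 10 listed genes reached an FPKM of 1 in all libraries.

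A few genes were high in some libraries and near 0 in others. Rps27rt, a near-identical copy of the ribosomal protein gene Rps27, was at 130, 122 and 0.479 CPM, and Rps27 at 1.93, 1.57 and 112 CPM. Their sum was steady, at 132, 124 and 112 CPM, so the split between the copies is uncertain. Jund was at 131, 5.04 and 120 CPM, low in replicate 2, while the related Junb was at 40.1, 34.5 and 22.9 CPM. Atp6v0c, a subunit of the lysosomal proton pump used by all cells, was at 3.0, 157 and 6.36 CPM. Ablim1 was at 40.7, 33.0 and 229 CPM, high in replicate 3. The cause of these values was not tested.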
